A study of Homo sapiens with 2 samples.

Results

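ZFX was mapped on the chromatin of DAOY, an established human medulloblastoma cell line, by chromatin immunoprecipitation and sequencing (ChIP-seq), and the peaks of chromosome 11 are described here. All 751 peaks of the deposited list that lie on this chromosome were taken, of 14471 peaks in all. They were divided by the position of their midpoint on the hg19 build into 3 classes. The first class held 6 stretches that carry clusters of olfactory receptor genes and together measured 11.1 Mb. The second was a gene-dense stretch of the long arm from 61 to 68 Mb, and the third was the rest of the span between the outermost peaks of the chromosome, 116 Mb. The limits of these stretches use no peak value, but the stretches were chosen with earlier results of these data known. The limits were not checked against an hg19 gene annotation, and no gene is tied to a peak here. The gene-dense stretch takes in the end of band 11q12 and the first part of band 11q13, and the larger part of band 11q13 lies beyond it and is counted in the rest. The study held 2 samples of DAOY cells grown in the same medium, with 1 library each. In the ZFX sample, sheared chromatin was precipitated with a rabbit polyclonal antibody against Zfx, and the input was sheared chromatin without precipitation. The peak list belongs to the ZFX sample, and nothing from the input was used here. A single library allows neither a replicate check nor a test, and how deeply it was sequenced is unknown here. Intervals below are 95% intervals over peaks of this library, which are not independent replicates.

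ZFX, a transcription factor of the zinc finger family whose gene lies on the X chromosome, is known to bind mostly at promoters rich in CpG dinucleotides and is needed for self-renewal of several kinds of stem cells. Olfactory receptors are the odour-sensing receptors of the nose. Their genes form the largest gene family of mammals, lie in tandem clusters poor in CpG islands, and are silent in most other tissues. The stretch at the border of bands 11q12 and 11q13, by contrast, is rich in genes, many of them expressed in every cell.

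The gene table of RefSeq, on another build (GRCh38.p14), was used only for the order of genes. Chromosome 11 carried 171 of the 390 protein-coding genes whose symbols mark them as olfactory receptors. Of these, 167 fell into 5 runs of at least 5 such genes, when up to 12 other genes were allowed between neighbours. The runs held 55, 12, 57, 21 and 22 olfactory receptor genes in their order along the chromosome. Which run lies in which of the 6 stretches counted for peaks was not checked on hg19. The runs are not free of other genes. In the first, from OR52B4 to OR52W1, 15 other protein-coding genes were interspersed, among them the 5 beta-like globin genes, which encode oxygen carriers of red blood cells, and 7 TRIM genes, several of which act in antiviral defence. In the run from OR9Q1 to OR10V1, 14 other genes were interspersed, such as ZFP91 and FAM111A. The run from OR6X1 to OR8A1 held only TMEM225 and VWA5A besides its receptors.

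The sequences under the peaks were not read, because no hg19 genome was used here. To show how the gene classes of these stretches differ in sequence, the 250 bases before the listed start of each gene were taken from the RefSeq promoter table (GRCh38.p14). They were found for 135 of the 171 olfactory receptor genes of chromosome 11, for 818 other protein-coding genes of the chromosome, and for 14 of 20 genes of bands 11q12 and 11q13. These 20 were listed by hand from general knowledge of this part of the chromosome, and are not a complete set of its genes. Which of them carry a peak was not tested. Positions of promoters are on GRCh38.p14 and cannot be set beside those of peaks, which are on hg19. The olfactory examples were taken from the 71 genes whose listed start is not an ATG, and the others from the 14 listed genes. They are the promoters nearest the median GC content of these groups, and CpG dinucleotides are in capitals. OR4D10 (chr11:59473065-59473314, plus strand) and OR51A7 (chr11:4903533-4903782, plus strand) encode olfactory receptors. BAD (chr11:64284705-64284954, minus strand) encodes a protein that promotes cell death, and HNRNPUL2 (chr11:62727458-62727707, minus strand) encodes an RNA-binding protein.
OR4D10: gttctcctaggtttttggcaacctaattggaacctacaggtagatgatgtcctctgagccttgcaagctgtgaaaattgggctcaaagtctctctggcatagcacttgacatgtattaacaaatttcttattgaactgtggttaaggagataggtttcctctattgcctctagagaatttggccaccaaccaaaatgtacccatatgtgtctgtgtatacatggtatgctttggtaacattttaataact
OR51A7: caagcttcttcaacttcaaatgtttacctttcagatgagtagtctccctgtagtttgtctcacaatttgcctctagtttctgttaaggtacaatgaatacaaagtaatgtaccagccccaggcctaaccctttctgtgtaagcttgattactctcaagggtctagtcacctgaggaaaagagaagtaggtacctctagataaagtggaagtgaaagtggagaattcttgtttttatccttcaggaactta
BAD: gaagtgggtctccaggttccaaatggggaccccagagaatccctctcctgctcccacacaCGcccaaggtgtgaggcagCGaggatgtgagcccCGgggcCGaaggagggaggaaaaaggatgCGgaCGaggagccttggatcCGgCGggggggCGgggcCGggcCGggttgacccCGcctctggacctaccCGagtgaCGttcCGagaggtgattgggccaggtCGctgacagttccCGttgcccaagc
HNRNPUL2: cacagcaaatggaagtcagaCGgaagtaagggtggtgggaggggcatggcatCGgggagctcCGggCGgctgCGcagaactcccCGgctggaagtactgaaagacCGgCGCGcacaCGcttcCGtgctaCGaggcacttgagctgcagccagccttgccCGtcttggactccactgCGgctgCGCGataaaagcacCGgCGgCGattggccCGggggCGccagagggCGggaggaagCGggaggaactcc

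Both olfactory receptor promoters had no CpG in 250 bases, whereas BAD had 17 and HNRNPUL2 had 23. The groups differed in the same way. The median olfactory receptor promoter of chromosome 11 had 1 CpG and 36.4% GC, and 48 of 135 had no CpG. No olfactory receptor promoter of the chromosome reached 10 CpG, and the highest count was 9, before OR52N2. Among the 818 other genes of the chromosome, the median was 18 CpG and 62.4% GC, and 69.7% had 10 CpG or more. The 14 listed genes of bands 11q12 and 11q13 had a median of 21.5 CpG, and 13 of them had 10 or more. The exception was RELA, which encodes a subunit of NF-kappaB, with 4. For 64 of the 135 olfactory receptor genes the listed start is an ATG, so that the bases before it may not be the promoter. The other 71 had a median of 1 CpG and 39.6% GC. The hexamer AGGCCT, the core of the motif known for ZFX and its own reverse complement, was found in 8 olfactory receptor promoters (5.93%) and in 69 of the 818 others (8.43%). Among the 14 listed genes of bands 11q12 and 11q13 it was found in 3 (21.4%), a number too small for a comparison. Over all 15843 protein-coding promoters of this length, 9.44% held it. One of the 8 is that of OR51A7 above.

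Peaks were sparse in the olfactory clusters and dense between 61 and 68 Mb. The 6 clusters together held 13 peaks, or 1.17 per Mb. The rest of the chromosome held 560 peaks, or 4.81 per Mb, and the 7 Mb of the gene-dense stretch held 178 peaks, or 25.4 per Mb. The density of the clusters was thus 0.243 of that of the rest, and the density of the gene-dense stretch was 5.28 times that of the rest. With the limits of all stretches moved 100 kb outward, the clusters took in 32 peaks and their ratio to the rest became 0.557. Put as shares, the clusters made up 8.26% of the span and held 1.73% of the peaks (exact Clopper-Pearson interval 0.925% to 2.94%). The gene-dense stretch made up 5.21% of the span and held 23.7% of the peaks (20.7% to 26.9%). These intervals treat peaks as independent and cover counting error only, and the copy number of the chromosome in this line was not measured here. In bins of 100 kb, 100 of the 111 cluster bins (90.1%) were without a peak. The same held for 844 of 1162 bins of the rest (72.6%) and for 19 of 70 bins of the gene-dense stretch (27.1%).

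**Figure D1:**
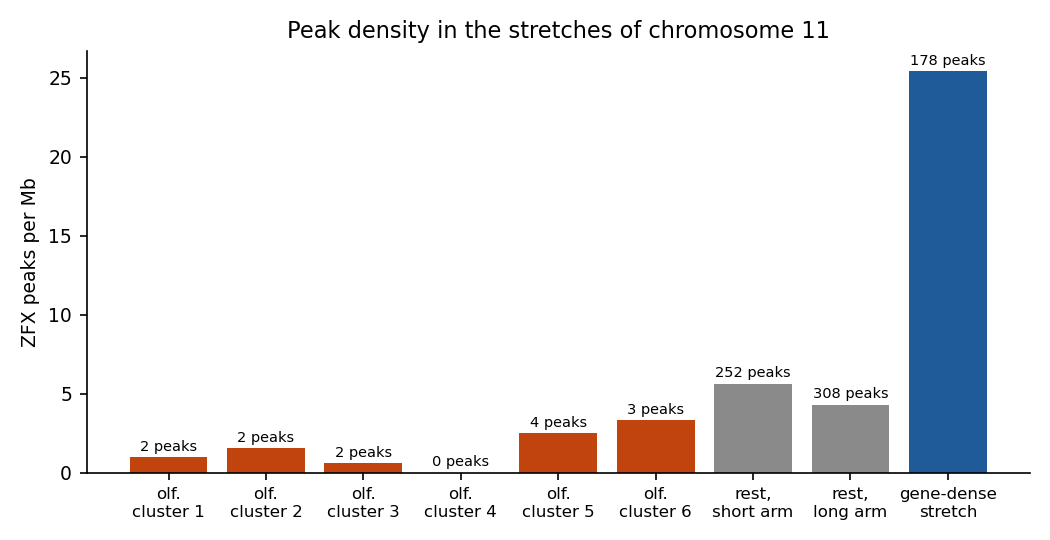
Peaks per Mb (bars) in the 6 olfactory clusters, numbered from the end of the short arm, in the rest of each arm and in the gene-dense stretch. The clusters lie between 0 and 3.33 peaks per Mb, below both arms of the rest (5.64 and 4.30), and the gene-dense stretch reaches 25.4.

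The observed density of each cluster was below that of the rest, though not to the same degree. From the end of the short arm, cluster 1 (4.3 to 6.3 Mb) held 2 peaks, cluster 2 (6.7 to 8.0 Mb) held 2 and cluster 3 (48.2 to 51.6 Mb) held 2. On the long arm, cluster 4 (54.7 to 56.6 Mb) held no peak, cluster 5 (57.7 to 59.3 Mb) held 4 and cluster 6 (123.6 to 124.5 Mb) held 3. Per Mb these counts came to 1.00, 1.54, 0.588, 0, 2.50 and 3.33. The rest of the short arm had 5.64 peaks per Mb and the rest of the long arm 4.30. Counts of 0 to 4 peaks leave the order of the clusters among themselves unresolved. They also leave unresolved whether clusters 5 and 6, only 1.6 and 0.9 Mb long, differ from the rest of the long arm.

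In cluster 1, the stretch that by textbook maps surrounds the beta-globin locus, a peak at chr11:4629056-4629541 was 486 bp wide and scored 260. The score is the authors' own value for a peak, with no stated unit, and starts at 50 in this list, with a median of 109. The second peak, chr11:6255245-6255885, scored 233 and lay only 44.4 kb from the limit of the cluster. Between them 1.63 Mb held no peak. Of the whole list, 79.0% of peaks scored below the first and 76.3% below the second.

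Cluster 2 held 2 peaks of nearly the same score, chr11:6947664-6948087 with 78.1 and chr11:7534118-7534437 with 78.3. They lay 586 kb apart, and 35.6% and 35.8% of the list scored lower. Both lay well inside the cluster, 248 kb and 466 kb from its limits.

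Cluster 3 ends at the centromere, and both of its peaks lay there. The peak at chr11:51579167-51579806 scored 111 and lay 20.5 kb from the limit, and the peak at chr11:51594150-51594237 scored 164 and lay 5.81 kb from it. The second was 88 bp wide, the narrowest of all 14471 peaks. The next narrowest, on chromosome 4, was 111 bp wide. Among peaks of chromosome 11 in the same 25% band of scores, the median width was 555.5 bp. No peak lay in the 3.41 Mb from chr11:48171892 to 51579166, a stretch that starts 28.1 kb before the cluster and takes in nearly all of it.

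Cluster 4, on the other side of the centromere, lay wholly inside a peak-free stretch. That stretch ran from the narrow peak of cluster 3 to a peak of score 359 at chr11:57089765-57090395, 490 kb beyond the cluster, and measured 5.50 Mb. It spans the centromere, and its length was not corrected for sequence in which no peak can be called. Uncorrected, it was the second longest of the chromosome. The longest, 5.66 Mb (chr11:96123851-101785720), and the next after it, 5.48 Mb (chr11:36531855-42013485), touched no olfactory cluster. Stretches without peaks were therefore not confined to olfactory clusters.

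Cluster 5 held the only close pair of peaks in any cluster, at chr11:58344868-58345643 with a score of 133 and chr11:58346574-58347266 with a score of 355. They were 930 bp apart and lay 645 kb and 647 kb inside the limits. The score of 355 was the highest in the clusters and ranked 92 among the 751 peaks of the chromosome. A peak at chr11:58873728-58874069 scored 50.4, close to the lowest score listed, and the last one at chr11:58912112-58912581 scored 94.2.

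In cluster 6, the farthest along the long arm, the outer 2 of 3 peaks lay close to the limits. The peak at chr11:123612059-123612497 scored 243 and lay 12.3 kb inside, and that at chr11:124492778-124493232 scored 106 and lay 7.0 kb inside. Between them a peak at chr11:123986138-123986469 scored 68.3.

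Pooled over the 12 cluster limits, peaks were denser outside than inside, though single limits differed. Of the 13 cluster peaks, 5 lay within 50 kb of a limit. In the outermost 100 kb inside the limits there were 5 peaks in 1.2 Mb (4.17 per Mb), and from 100 to 200 kb inside there was none in 1.2 Mb. From 200 to 500 kb inside there were 6 peaks in 3.5 Mb (1.71 per Mb), and farther inside there were 2 peaks in 5.2 Mb (0.385 per Mb), so that the counts did not decline evenly toward the interior. In the first 100 kb outside, 19 peaks lay in 1.2 Mb (15.8 per Mb). Of these, 9 lay beyond the far limit of cluster 5 alone, with scores from 52.9 to 364. Without that limit, 10 peaks lay in 1.1 Mb (9.09 per Mb). Peaks were found within 100 kb outside for 7 of the 12 limits and within 100 kb inside for 4. At the limit of cluster 3 toward the centromere, 2 peaks lay inside and none outside. All stretches within 1 Mb of a cluster together held 87 peaks in 9.5 Mb, or 9.16 per Mb, which was 7.82 times the density inside the clusters and above that of the whole rest (4.81). Distances were measured to the nearest limit, and the outside stretches include the centromere between clusters 3 and 4. No length given here, there or elsewhere, was corrected for sequence in which no peak can be called.

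**Figure D2:**
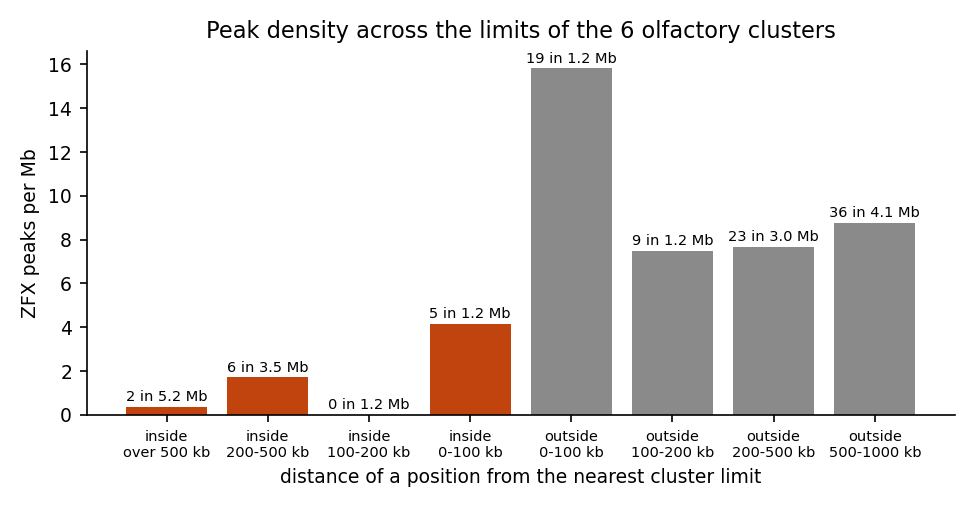
Peaks per Mb (bars) by distance of a position from the nearest limit of the 6 olfactory clusters, with the count and the length above each bar. Inside, the values lie between 0 and 4.17 per Mb, and outside they lie between 7.50 and 15.8.

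The gene-dense stretch held peaks in each of its windows of 1 Mb, with a maximum between 65 and 66 Mb. Its 7 windows of 1 Mb held 10, 21, 14, 30, 51, 29 and 23 peaks in order along the chromosome. The median of all 135 windows of chromosome 11 was 4 peaks, and 35 windows (25.9%) held none. The 3 fullest windows of the chromosome lay side by side from 64 to 67 Mb. Next came the window at the very end of the short arm (0 to 1 Mb, 26 peaks) and that from 118 to 119 Mb (25 peaks). On the other chromosomes, 738 of 2821 windows (26.2%) held none, so the share of empty windows on chromosome 11 was close to that elsewhere. Within 65 to 66 Mb, 9 of 10 bins of 100 kb held a peak, and 10 peaks was the most in any bin. The stretch also had empty pieces. The longest measured 728 kb (chr11:62649047-63377025) and lay across the border of the windows with 21 and 14 peaks, and the next 2 measured 417 kb (chr11:61891752-62308571) and 316 kb (chr11:67466078-67781772).

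Set against other chromosomes, the gene-dense stretch was among the richest of its length. Windows of 7 Mb were laid at each whole Mb of the other chromosomes that were long enough, 2685 in all, and 6 of them held 178 peaks or more. These 6 windows overlap each other and lay on chromosomes 6 and 19. When the richest 7 Mb of each chromosome were compared, chromosome 6 (26 to 33 Mb) had 208 peaks, chromosome 19 had 198 and chromosome 11 (62 to 69 Mb) had 179. The 7 Mb of chromosome 11 held 23.8% of the peaks of their chromosome in 5.21% of its span, a ratio of 4.58. Only chromosome 6 with 6.08 and chromosome 4 with 5.60 had a higher ratio among the 23 chromosomes long enough for such windows. For chromosome 19 the ratio was 1.71. The richest window was sought on each chromosome, so these ratios are above 1 by construction.

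**Figure D3:**
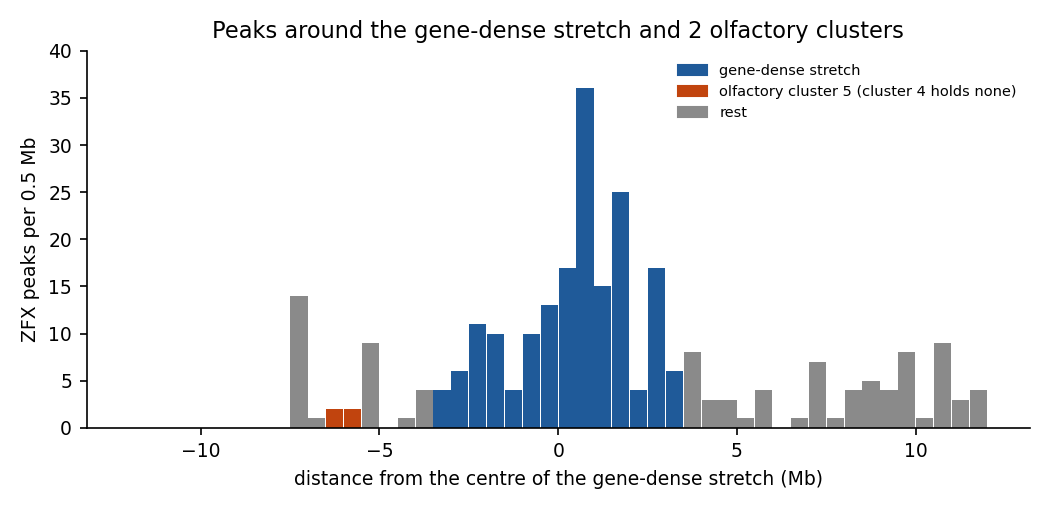
Number of peaks per 0.5 Mb (bars) by distance from the centre of the gene-dense stretch, out to 12 Mb on either side. The tallest bar, 36 peaks, lies 0.5 to 1 Mb from the centre, and the bars on the left fall to 0 across olfactory cluster 4 and the centromere.

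More peaks per Mb did not come with higher scores. The median score was 98.3 in the gene-dense stretch (order-statistic interval 88.1 to 116), 108 in the rest (96.3 to 117) and 111 in the clusters (78.1 to 243). The intervals overlapped, and that of the 13 cluster peaks was wide. In the fullest window, 65 to 66 Mb, the median score was 85.1 (67.6 to 111). Its neighbours from 64 to 65 Mb and from 66 to 67 Mb had medians of 104 and 118, and none of these 3 intervals left out the median of the rest. The share of peaks above the median score of the list was 45.5% in the gene-dense stretch, 49.6% in the rest and 53.8% in the clusters, the last being 7 of 13 peaks.

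Scores of 1000 or more were reached by 2.10% of all peaks in the list. On chromosome 11 they were reached by 20 peaks (2.66%, exact interval 1.63% to 4.08%), of which 7 lay in the gene-dense stretch (3.93% of 178, 1.59% to 7.93%), 13 in the rest (2.32% of 560, 1.24% to 3.94%) and none in the clusters. With 13 peaks, a count of 0 allows a share of up to 24.7% by the exact interval. The shares in all 3 classes therefore include that of the list.

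The highest score in the gene-dense stretch, 2700, belonged to a peak of 688 bp at chr11:63606492-63607179, 24.7 kb from its nearest neighbour. It was followed by chr11:61196837-61197572 with 2205, which was 66.9 kb from the next peak, and by chr11:64684379-64684932 with 1887. The peak at chr11:65292518-65293262 was the only one of the fullest window to pass 1000, at 1563. The other 3 above 1000 were chr11:64883993-64885278 with 1326, chr11:62608629-62609497 with 1242 and chr11:67350872-67352009 with 1174. The next 3 by score reached 822, 812 and 707. Of these 10 strongest peaks, 3 had a neighbour within 1 kb, those scoring 1242, 822 and 812, at 46, 3 and 5 bp. Such a neighbour was found for 39.3% of all peaks of the stretch and for 32.1% of the whole list. The highest score of the whole chromosome, 2914, lay outside both kinds of stretch, at chr11:16759718-16760944, with 273 kb to the nearest peak. Next in the rest were chr11:47788005-47789013 with 2037, chr11:85194969-85195325 with 2024 over only 357 bp, chr11:107879490-107880523 with 1989 and chr11:14541218-14542170 with 1816. By its highest score chromosome 11 ranked 15 among 24 chromosomes. Many of those above it were tied at the same highest score of 3100, so this rank says little.

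Width differed little between the classes. Median widths were 430.5 bp in the gene-dense stretch (405 to 487), 454 bp in the rest (430 to 479) and 455 bp in the clusters (332 to 641). Widths ran from 157 to 1658 bp in the gene-dense stretch, from 169 to 2122 bp in the rest and from 88 to 776 bp in the clusters. Width and score rose together over the peaks of the chromosome (Spearman's rho = 0.873 over 751 peaks), in the gene-dense stretch (0.898, 178 peaks) and in the rest (0.870, 560 peaks). Over the 13 cluster peaks rho was 0.555, with the 88 bp peak far off the trend. These are descriptions across peaks called in 1 library. When the list was divided by score into 4 bands of 25%, the median widths of the gene-dense stretch and the rest were close, 291 and 289 bp in the lowest band and 764 and 811 bp in the highest. Peaks of 1000 bp or more made up 5.46% of chromosome 11 (exact interval 3.95% to 7.33%) and 9.45% of the other chromosomes (8.96% to 9.95%), and the intervals did not overlap. The median width was 453 bp on chromosome 11 (428 to 468) and 484 bp elsewhere (478 to 489). By median width chromosome 11 ranked 15 of 24. In the highest band of scores its peaks had a median of 800 bp against 860 bp elsewhere.

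The widest peaks of the gene-dense stretch measured 1658 bp (chr11:65190094-65191751, score 587), 1570 bp (chr11:65685797-65687366, score 579) and 1420 bp (chr11:63438114-63439533, score 433). None of these 3 was among the 10 strongest of the stretch. In the rest, the widest peak of the chromosome measured 2122 bp (chr11:33278583-33280704) and scored 1324.

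**Figure D4:**
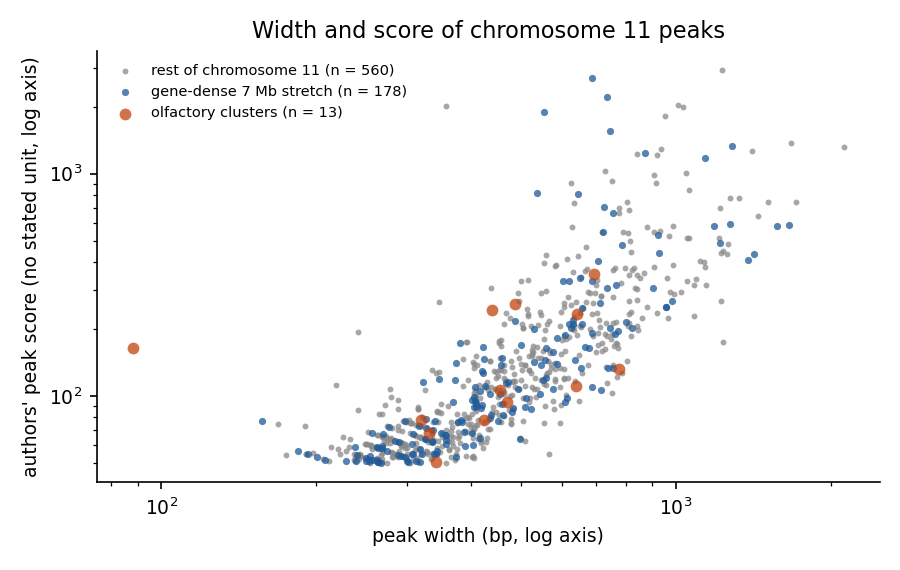
Width in bp (log axis) against the authors' score (log axis) for the 751 peaks of chromosome 11, coloured by class. Peaks of the 3 classes share 1 cloud, the 13 cluster peaks score at most 355, and the 88 bp peak of cluster 3 lies apart on the left.

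The gap from a peak to its nearest neighbour had a median of 2.45 kb in the gene-dense stretch (1.25 to 6.65 kb), 17.4 kb in the rest (13.3 to 22.8 kb) and 50.4 kb in the clusters (14.3 to 374 kb). The neighbour was sought on the whole chromosome, so for a cluster peak it could lie outside the cluster. It did so for the peaks of clusters 1 and 2 and for both outer peaks of cluster 6, among them the peak whose gap is the median. The intervals of the gene-dense stretch and the rest did not overlap. Their ratio was 0.141, and it became 0.307 without the window from 65 to 66 Mb. Joining close peaks gave 0.295, and keeping only scores above the list's median gave 0.373. For the clusters the gap to the nearest neighbour gave no clear direction. Their interval overlapped that of the rest, and their ratio to the rest was 2.90 over all peaks but 0.310 among the 7 cluster peaks above the median score of the list. Short gaps were not where the difference lay, since 25% of gaps were at most 0.379 kb in the gene-dense stretch and at most 0.323 kb in the rest. A neighbour within 1 kb was found for 32.1% of all peaks in the list. In the gene-dense stretch it was found for 70 of 178 peaks (39.3%, exact interval 32.1% to 46.9%), in the rest for 185 of 560 (33.0%, 29.2% to 37.1%), and in the clusters for the pair of cluster 5, 2 of 13 (15.4%, 1.92% to 45.4%). All 3 intervals included the share of the list. Among gaps between consecutive peaks that were longer than 1 kb, the median was 23.9 kb in the gene-dense stretch (quartiles 9.14 and 53.8 kb, 138 gaps) and 101 kb in the rest (31.4 and 235 kb, 453 gaps). Between peaks of the same cluster it was 506 kb (206 and 556 kb), longer than in the rest but over only 7 gaps. Of all gaps between consecutive peaks, 0 of 177 in the gene-dense stretch exceeded 1 Mb, against 19 of 553 in the rest and 1 of 8 in the clusters. More than 100 kb lay between a peak and its nearest neighbour for 16.7% of all peaks in the list. The same held for 2 of 178 peaks in the gene-dense stretch (1.12%, exact interval 0.136% to 4.0%). It held for 115 of 560 in the rest (20.5%, 17.3% to 24.1%) and 4 of 13 in the clusters (30.8%, 9.09% to 61.4%). Of these 3 intervals, only that of the clusters included the share of the list.

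**Figure D5:**
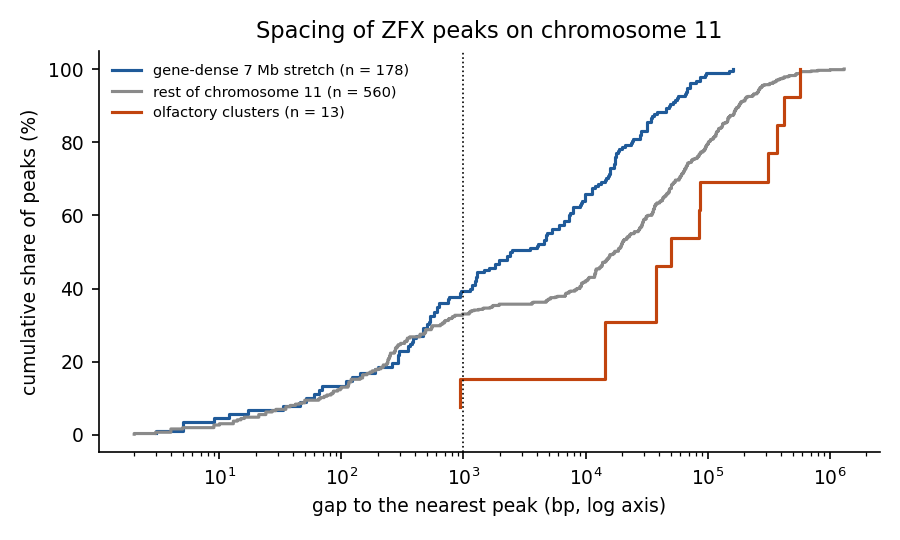
Cumulative share of peaks (%) by the gap to the nearest peak (bp, log axis) in the 3 classes, with a dotted line at 1 kb. The curves of the gene-dense stretch and the rest run together below about 0.5 kb and part above 1 kb, with medians of 2.45 and 17.4 kb, and the curve of the 13 cluster peaks lies to the right.

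When peaks at most 1 kb apart were joined, the gene-dense stretch had 139 regions. Single peaks made up 108 of them, pairs 25 and longer runs 6. The rest had 460 regions, with 375, 72 and 13 of these kinds, and the clusters held 12, of which 1 was a pair. The longest run of close peaks on the chromosome lay in the fullest window, at chr11:65323145-65327185, where 5 peaks covered 4041 bp from end to end. Its members scored 50.8, 62.8, 62.5, 111 and 107 in order, so that no member was strong. In contrast, the run of 3 at chr11:62607042-62609497 held the peak scoring 1242. Runs of 4 peaks occurred in the rest, at chr11:57192201-57195067 and chr11:74382753-74385065, with highest scores of 223 and 288. The first of these lay between clusters 4 and 5.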

How the data were processed

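ZFX ChIP-seq peaks of 1 library were analysed, and the input was not analysed. Bowtie2 2.0.0 and hg19 are named in the submitters' processing notes without their roles. They were taken as the aligner and the build. Peak names carry the name MACS, while its version, threshold and control are not stated in any source used here. The score of each peak was deposited by the authors without a unit. Starts were taken as counted from 0 and are printed counted from 1. Other columns, deposited by the authors, hold positions.

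Peaks were assigned to the 3 classes by midpoint, with the span between the outermost peaks as length. Medians have order-statistic intervals and shares have exact Clopper-Pearson intervals, at 95%. Peaks called close lay at most 1 kb apart. The scripts were tested on simulated peak lists. No gene was named by position, since the gene and promoter tables are on GRCh38.p14. Named peaks followed a rule: all peaks of a cluster with 5 or fewer, the 10 strongest and 3 widest of the gene-dense stretch, the 5 strongest of the rest, the fullest windows, the longest runs and the longest peak-free stretches, with the widest of the rest added. The stretches, gene lists and measures were chosen with earlier results of these data known. The promoter comparison was added after the peak values were seen, and the list of 20 genes was used for it alone. Alternatives were other ways of counting, joining and bounding peaks, other lengths of the rest, and clusters left out. The tools were scipy 1.17.1, pandas 2.3.3 and numpy 2.4.6 under Python 3.11.15, with matplotlib 3.10.9 for figures.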

Additional observations from a re-analysis of the deposited data

How the results depend on the processing

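For 8 results, 73 alternatives were computed, 5 of them chosen after seeing the data. A density ratio was taken as kept within 1.5 times its value, and a median within its interval. By this measure 69 were kept and none of the results whose interval left out equality changed direction. Counting peaks by any overlap left the classes at 13, 178 and 560 peaks, so those alternatives only repeat the reported values. The intervals of the cluster medians were wide, which made it easy for a value to be kept. The density of the clusters relative to the rest was 0.557 with limits moved 100 kb outward, which took in 32 peaks in place of 13, and 0.128 against the rest within 1 Mb of a cluster. Moved inward it was 0.168, with 8 peaks. Leaving out each cluster gave 0.197 to 0.297. The density ratio of the gene-dense stretch to the rest was 4.40 to 5.91 over its 8 alternatives. Its value without the window from 65 to 66 Mb was 4.40. The spacing ratio of the gene-dense stretch to the rest was 0.126 to 0.373, against 0.141, and 0.307 without that window. That of the clusters was 2.90, with an interval of 0.826 to 21.5, and fell to 0.310 among the 7 cluster peaks above the median score of the list; the cause was not tested. The width of the gene-dense stretch minus that of the rest was -23.5 bp and became 45.5 bp when close peaks were joined, a step that widens regions by construction. No paired analysis was possible because each group has 1 library. Without the depth, the number of weak sites below the list's lowest score cannot be estimated.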
